A study of Mus musculus with 8 samples.

Results

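The 9 genes described here regulate the integrated stress response. They are *Atf4*, *Atf3*, *Atf5*, *Ddit3*, *Cebpb*, *Cebpg*, *Trib3*, *Chac1* and *Ppp1r15a*, chosen by name and matched to the Entrez identifiers of the count table, which holds 27179 genes. All 9 were found, and all 9 passed the expression filter that left 17700 genes for testing.

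RNA-seq was performed on B cell precursors sorted from mouse bone marrow, with 2 libraries in each of 4 groups. Ctrl mice were *Upf1* Flox/Flox with *Mb1* +/+, and cKO mice were *Upf1* Flox/Flox with *Mb1* Cre/+. Every group, Ctrl included, also carried *Igh* B1-8hi/+, an immunoglobulin heavy chain gene that is already rearranged, on a C57BL/6 background. The study as a whole used age-matched adult mice of both sexes. Early large pre-B (early LPre-B) cells were gated as Lineage-, B220+, sIgM- cells that were, among other marks, CD43+, CD2- and of high forward scatter. Small pre-B (sPre-B) cells were likewise Lineage-, B220+ and sIgM-, and CD43-low, CD25+, CD2+ and of low forward scatter. The *Mb1* (*Cd79a*) promoter drives Cre in the B lineage, from inside the *Cd79a* locus. UPF1, the protein targeted in the cKO, is an RNA helicase at the centre of nonsense-mediated mRNA decay.

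In the integrated stress response, kinases that sense amino acid shortage, unfolded proteins, heme loss or viral RNA phosphorylate the translation factor eIF2. General translation slows, while mRNAs with short reading frames upstream of their coding sequence, *Atf4* among them, are translated better. ATF4 then acts with partners of the C/EBP family at genes for amino acid synthesis, amino acid transport and tRNA charging, and in lasting stress together with CHOP, the product of *Ddit3*. The mRNA levels given here measure neither eIF2 phosphorylation nor protein.

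Each library held 68516857 to 160426338 assigned counts. The gene-level count of *Upf1* was no check of the deletion, since exons outside the deleted part are counted too, and its log2 fold change (Log2FC, cKO minus Ctrl) was 0.16 (adjusted P = 0.251) in the early LPre-B and 0.59 (adjusted P = 0.00245) in the sPre-B stage. *Gas5*, an RNA that nonsense-mediated decay removes, was higher in cKO cells by 2.76 and 1.95. *Cd79a*, which is interrupted only on the chromosome that carries the Cre allele, was lower at -1.77 and -2.08. Ctrl mice carried no Cre, so effects of Cre or of *Cd79a* loss cannot be told apart from those of the *Upf1* deletion. In replicate 2 of both Ctrl groups *Xist* was at 304 and 151 counts and Y-linked genes at 19733 and 28205, whereas the other 6 libraries had at least 290740 and at most 34. By these counts, replicate 2 of both Ctrl groups was male and the other 6 libraries, all cKO libraries among them, were female. Sex was thus not balanced between the genotypes. Where a member lost its call without both Ctrl replicate 2 libraries, that value is given. In bulk samples, fewer cells of a type and less RNA per cell cannot be told apart.

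Promoter sequences are shown because ATF4 and its partners are known to act through short DNA sites. TGATGCAA is the joint site of C/EBP and ATF proteins, and TGACGTCA is the palindromic site of CREB and ATF proteins. Both strands of the 250 bases before each annotated start were searched in 10 promoters of the 9 genes (2 of *Atf5*), taken from RefSeq on GRCm38.p6. TGATGCAA was found before *Atf3* and *Chac1*, and in 0.791% of 32851 promoters overall. TGACGTCA was found before *Ppp1r15a*, and in 1.55% overall. A looser form, TGATGNAA, which takes in every TGATGCAA, added no member and was present in 3.45% of all promoters. The 3 promoters with a match are given on the strand of the gene, 5′ to 3′, with the match in capitals, and TTGCATCA is TGATGCAA read on the other strand.
Atf3 (chr1:191183334-191183583, minus strand, match 110 bases before the start): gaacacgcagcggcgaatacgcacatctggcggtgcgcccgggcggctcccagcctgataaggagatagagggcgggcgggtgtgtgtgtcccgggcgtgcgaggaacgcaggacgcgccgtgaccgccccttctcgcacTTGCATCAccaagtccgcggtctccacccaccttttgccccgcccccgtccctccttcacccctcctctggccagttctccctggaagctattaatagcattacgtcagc
Chac1 (chr2:119350992-119351241, plus strand, match 193 bases before the start): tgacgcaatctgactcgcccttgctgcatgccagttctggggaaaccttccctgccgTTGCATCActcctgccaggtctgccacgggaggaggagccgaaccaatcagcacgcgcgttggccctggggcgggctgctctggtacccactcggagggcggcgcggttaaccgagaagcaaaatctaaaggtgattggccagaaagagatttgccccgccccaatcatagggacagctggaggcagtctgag
Ppp1r15a (chr7:45526269-45526518, minus strand, match 12 bases before the start): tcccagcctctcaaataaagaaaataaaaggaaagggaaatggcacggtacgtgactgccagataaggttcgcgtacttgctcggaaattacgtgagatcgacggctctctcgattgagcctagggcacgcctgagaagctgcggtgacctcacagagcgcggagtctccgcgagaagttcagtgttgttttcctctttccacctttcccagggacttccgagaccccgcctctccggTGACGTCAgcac

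The 5′ leaders were searched for ATG triplets, which can start the short upstream reading frames named above, in the longest GENCODE transcript with a RefSeq match. The *Atf4* leader of 594 bases held 3, and 1 of these opened a frame that ran past the coding start. *Atf5* held 6, of which 2 did so. *Ppp1r15a* held 3, *Ddit3* held 2, *Atf3* and *Cebpg* held 1 each, and *Cebpb*, *Trib3* and *Chac1* held none. At least 1 upstream ATG was thus present in 6 of the 9 members and in 51.6% of 18770 genes. A frame open past the start was present in 2 members and 16.9% of genes. The median leader had 252 bases in the members and 163 in all genes, and the median number of upstream ATGs was 1 in both.

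*Atf4*, *Ddit3*, *Trib3* and *Chac1* were higher in cKO than in Ctrl cells of both stages. Levels are given as CPM (counts scaled to a common library size, with TMM factors) for replicate 1 and then replicate 2, and adjusted P is that of the edgeR quasi-likelihood test after Benjamini-Hochberg adjustment over all genes tested.

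**Figure D1:**
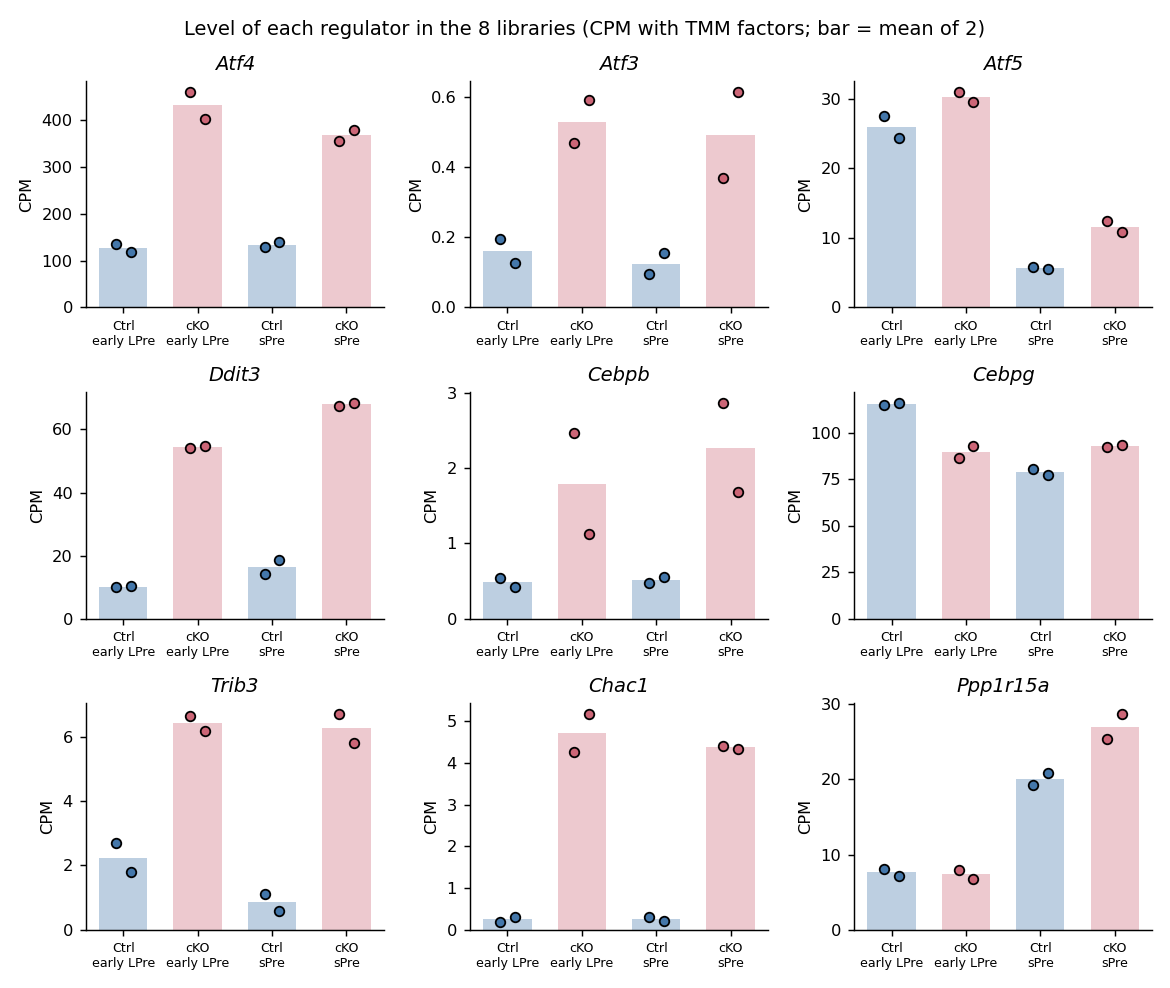
Level of each regulator in the 8 libraries (CPM), on a vertical axis from 0, with a point for each library and a bar for the mean of the 2 in each group. *Chac1* lay at 4.26 to 5.17 CPM in the 4 cKO libraries and at 0.188 to 0.308 CPM in the 4 Ctrl libraries, while *Ppp1r15a* was separated by stage.

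*Atf4* (chr15:80255184-80257541, plus strand, mm10), the transcription factor at the head of the response, measured 134 and 118 CPM in Ctrl and 461 and 403 CPM in cKO at the early LPre-B stage. At the sPre-B stage it measured 129 and 139 CPM in Ctrl and 355 and 379.9 CPM in cKO. Every cKO library lay above every Ctrl library. The Log2FC was 1.77 (SE 0.12, adjusted P = 5.22e-05) in the earlier and 1.45 (SE 0.12, adjusted P = 7.41e-05) in the later stage, which are 3.42-fold and 2.74-fold differences.

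*Ddit3* (chr10:127290774-127296288, plus strand), which encodes the C/EBP relative CHOP, stood at 9.94 and 10.2 CPM in Ctrl and 54.0 and 54.6 CPM in cKO early LPre-B cells. Among sPre-B cells it stood at 14.0 and 18.7 CPM in Ctrl and 67.5 and 68.4 CPM in cKO. The cKO replicates were close to each other, and no Ctrl library came near them. The Log2FC was 2.43 (SE 0.14, adjusted P = 2.09e-05) and 2.05 (SE 0.13, adjusted P = 3.56e-05) in the 2 stages. *Ddit3* shares 68 of its 1713 exon bases with *Mars1*, the methionyl-tRNA synthetase gene on the opposite strand, which was itself higher by 0.87 and 1.22. Reads in such shared bases cannot be told apart without strand, here and for the genes below.

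*Trib3* (chr2:152337422-152344032, minus strand), a pseudokinase that binds ATF4 and CHOP and restrains them, was at 2.69 and 1.79 CPM in Ctrl and 6.65 and 6.19 CPM in cKO early LPre-B cells. Its sPre-B values were 1.12 and 0.582 CPM in Ctrl and 6.70 and 5.81 CPM in cKO. The 4 cKO libraries sat within a narrow range of 5.81 to 6.70 CPM. The Log2FC was 1.51 (SE 0.30, adjusted P = 0.0062) and 2.86 (SE 0.32, adjusted P = 0.000351).

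*Chac1* (chr2:119351229-119354381, plus strand), an enzyme that breaks down glutathione, showed the largest Log2FC of the 9 in both stages. Its early LPre-B counts were 26 and 24 in Ctrl (0.188 and 0.308 CPM) and 464 and 672 in cKO (4.26 and 5.17 CPM). Its sPre-B counts were 25 and 15 in Ctrl (0.296 and 0.213 CPM) and 407 and 542 in cKO (4.41 and 4.33 CPM). The groups were far apart, with a Log2FC of 4.29 (SE 0.30, adjusted P = 6.18e-05), or 19.5-fold, and 4.09 (SE 0.31, adjusted P = 5.64e-05), or 17.0-fold.

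*Atf3* and *Cebpb* were also higher in cKO cells, at low levels and with wider errors. *Atf3* (chr1:191170296-191218039, minus strand), a stress-induced repressor of the ATF family, had early LPre-B counts of 27 and 10 in Ctrl and 51 and 77 in cKO. Its sPre-B counts were 8 and 11 in Ctrl and 34 and 77 in cKO. Scaled for depth, the 4 Ctrl libraries held 0.0946 to 0.195 CPM and the 4 cKO libraries 0.369 to 0.616 CPM, with no overlap. The Log2FC was 1.68 (SE 0.47, adjusted P = 0.0262) and 1.98 (SE 0.50, adjusted P = 0.0154). The early LPre-B call was lost without any 1 of the 4 early LPre-B libraries (adjusted P of 0.0559 and 0.102 without Ctrl replicate 1 or 2, and 0.0647 and 0.112 without cKO replicate 1 or 2) and without both Ctrl replicate 2 libraries (adjusted P = 0.109). The sPre-B call was lost without Ctrl sPre-B replicate 1 (adjusted P = 0.104) or cKO sPre-B replicate 2 (adjusted P = 0.0901).

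*Cebpb* (chr2:167688915-167690418, plus strand), an activator of the C/EBP family, measured 0.535 and 0.423 CPM in Ctrl and 2.46 and 1.12 CPM in cKO at the early LPre-B stage. At the sPre-B stage the values were 0.473 and 0.553 CPM in Ctrl and 2.86 and 1.68 CPM in cKO. Replicate 1 was the higher library in both cKO groups, and cKO and Ctrl did not overlap. The Log2FC was 1.89 (SE 0.43, adjusted P = 0.0117) and 2.14 (SE 0.44, adjusted P = 0.00632). The early LPre-B call was lost without cKO early LPre-B replicate 1 (Log2FC 1.22, adjusted P = 0.0836) and without Ctrl early LPre-B replicate 1 or 2 (adjusted P = 0.0509 and 0.0695). Without both Ctrl replicate 2 libraries, neither stage was called (adjusted P = 0.0906 and 0.0546).

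*Cebpb* is abundant in myeloid cells, so the summed level of 8 myeloid markers is set beside it. That sum was 111 to 134 CPM in Ctrl and 50.1 to 55.6 CPM in cKO early LPre-B cells, and 304 to 355 CPM in Ctrl and 211 to 243 CPM in cKO sPre-B cells. *Itgam* made up most of it, with 87.1 and 97.4 CPM in Ctrl and 30.4 and 41.2 CPM in cKO early LPre-B cells, and 228 and 262 CPM in Ctrl and 179 and 176 CPM in cKO sPre-B cells. Within each stage the sum was lower in cKO, and across stages it was higher in sPre-B cells of either genotype. Its part in the *Cebpb* result was not tested. None of the 8 was called higher by edgeR or DESeq2 in either stage, or had an unadjusted P under 0.05 upwards, and 2 and 1 were called lower (16.9% and 14.9% of all genes), with *Itgam* at -1.36 and -0.46 and *Lyz2* at -1.39 in early LPre-B cells. *Cebpb* shares 312 of its 1504 exon bases with *Tmem189* on the opposite strand, whose Log2FC was -0.37 (adjusted P = 0.0273) and -0.26 (adjusted P = 0.0875).

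*Atf5*, *Cebpg* and *Ppp1r15a* followed other patterns. *Atf5* (chr7:44812256-44816658, minus strand), an activator that is translated in the manner of *Atf4*, stood at 27.6 and 24.3 CPM in Ctrl and 31.0 and 29.6 CPM in cKO early LPre-B cells. Its Log2FC there was 0.22 (95% interval -0.06 to 0.50, adjusted P = 0.205), without overlap of the libraries. The sPre-B values were 5.84 and 5.53 CPM in Ctrl and 12.4 and 10.8 CPM in cKO, well apart, with a Log2FC of 1.03 (SE 0.13, adjusted P = 0.000546). *Atf5* shares 82 of its 1993 exon bases with *Nup62* and as many with *Il4i1*, both on the opposite strand, with Log2FC of -0.39 and 0.33 in early LPre-B and 0.44 and 0.72 in sPre-B cells.

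*Cebpg* (chr7:35046422-35056573, minus strand), a partner of ATF4 without an activation domain of its own, was at 115 and 116 CPM in Ctrl and 86.6 and 93.1 CPM in cKO early LPre-B cells. For sPre-B cells it was at 80.7 and 77.3 CPM in Ctrl and 92.3 and 93.8 CPM in cKO. The order of cKO and Ctrl was opposite in the 2 stages, with no overlap in either. The Log2FC was -0.36 (SE 0.08, adjusted P = 0.00917) in early LPre-B cells, and 0.24 (SE 0.08, adjusted P = 0.0473) in sPre-B cells. The first call was lost without cKO early LPre-B replicate 1 (adjusted P = 0.0701) and without both Ctrl replicate 2 libraries (adjusted P = 0.0532). The second was lost without any 1 of the 8 libraries (adjusted P from 0.0587 to 0.199) and without both Ctrl replicate 2 libraries (adjusted P = 0.212).

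*Ppp1r15a* (chr7:45522916-45526268, minus strand), whose product GADD34 brings a phosphatase to eIF2 and so ends the response, measured 8.10 and 7.19 CPM in Ctrl and 7.99 and 6.80 CPM in cKO early LPre-B cells. These overlapped, with a Log2FC of -0.05 (95% interval -0.36 to 0.26, adjusted P = 0.818). Its sPre-B values of 19.3 and 20.9 CPM in Ctrl and 25.3 and 28.7 CPM in cKO did not overlap, with a Log2FC of 0.43 (SE 0.14, adjusted P = 0.0392). That call was lost without any 1 of the 4 sPre-B or 2 Ctrl early LPre-B libraries (adjusted P of up to 0.181, without Ctrl sPre-B replicate 1) and without both Ctrl replicate 2 libraries (adjusted P = 0.0993).

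**Figure D2:**
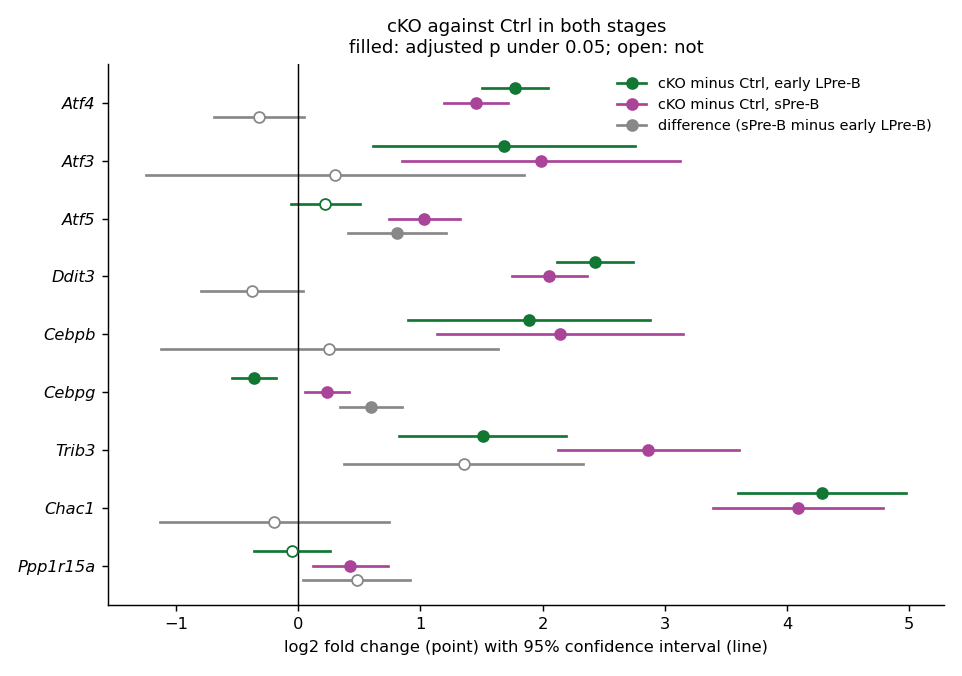
Log2FC of each regulator, cKO minus Ctrl, on the horizontal axis, in the early LPre-B and the sPre-B stage, and the difference of the 2 effects. Points are estimates, filled where the adjusted P was under 0.05, and lines are 95% confidence intervals. *Atf4*, *Ddit3*, *Trib3* and *Chac1* lie right of 0 in both stages, and *Cebpg* lies on opposite sides (-0.36 and 0.24).

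Of the 9 members, 6 were called higher and 1 lower in cKO early LPre-B cells, against 14.5% and 16.9% of all genes tested. In cKO sPre-B cells 9 were called higher and 0 lower, against 19.8% and 14.9%. These shares rest on 2564 higher and 2983 lower genes in the first comparison and 3505 and 2629 in the second. The first pair was 1648 and 1327 without cKO early LPre-B replicate 1, 1662 and 1903 without replicate 2, and 2294 and 1896 without Ctrl replicate 1 of that stage. The second was 2283 and 1390 without cKO sPre-B replicate 1. Libraries did not overlap for 7 higher and 1 lower members in the first comparison (29.9% and 36.4% of all genes) and for 9 higher and 0 lower members in the second (36.5% and 34.3%). The median Log2FC of the members was 1.68 and 1.98, and that of all genes -0.06 and 0.01. With single libraries left out, 4 to 6 members were called higher in early LPre-B and 6 to 8 in sPre-B cells. *Atf4*, *Ddit3*, *Trib3* and *Chac1* were called in both stages under every alternative run, and so was *Atf5* in sPre-B cells.

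Whether the effect of the cKO differed between the stages was tested directly, as sPre-B minus early LPre-B. This difference was called for 2 members, where 2.64% of all genes were called higher and 1.6% lower. Over all genes these were 467 higher and 283 lower, but 81 and 41 without cKO early LPre-B replicate 1, 48 and 28 without both Ctrl replicate 2 libraries, and lower by over 1.5 times in at least 1 direction without any other 1 library but Ctrl sPre-B replicate 1. They were larger by the likelihood-ratio test (1004 and 504), with no expression filter (1078 and 497 of 22889 genes) and by DESeq2 (1045 and 725 of 15984 genes). For the members, it was 0.81 (SE 0.18, adjusted P = 0.0428) for *Atf5* and 0.60 (SE 0.11, adjusted P = 0.0274) for *Cebpg*. *Atf5* lost the call without any 1 of the 8 libraries (adjusted P from 0.058 to 0.14), *Cebpg* without any 1 but Ctrl sPre-B replicate 1 (adjusted P of up to 0.105), and both without the 2 Ctrl replicate 2 libraries (adjusted P = 0.155 and 0.168). For *Trib3* the difference was 1.35 (95% interval 0.38 to 2.33, adjusted P = 0.118), and it was called without Ctrl sPre-B replicate 1 (1.90, adjusted P = 0.0356). For *Atf4*, *Ddit3* and *Chac1* it was -0.32, -0.38 and -0.20, with 95% intervals of -0.69 to 0.05, -0.79 to 0.04 and -1.13 to 0.74.

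Between the stages of Ctrl cells, *Ppp1r15a* and *Ddit3* were higher in sPre-B cells, with a Log2FC of 1.39 (SE 0.14, adjusted P = 4.43e-05) and 0.70 (SE 0.13, adjusted P = 0.00172). *Atf5*, *Trib3* and *Cebpg* were lower, at -2.19 (SE 0.13, adjusted P = 3.29e-06), -1.39 (SE 0.32, adjusted P = 0.00485) and -0.55 (SE 0.08, adjusted P = 0.000371). These 2 and 3 members stand beside 29.1% of all genes called higher and 31.1% lower. *Trib3* lost its call without Ctrl early LPre-B replicate 1 (-1.01, adjusted P = 0.0518). *Atf4* did not pass, with a Log2FC of 0.09 (95% interval -0.17 to 0.35), and neither did *Atf3*, *Cebpb* or *Chac1*, at -0.41, 0.09 and 0.09.

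Between the stages of cKO cells, *Ppp1r15a* was higher in sPre-B cells, with a Log2FC of 1.87 (SE 0.14, adjusted P = 9.8e-06), and *Atf5* was lower, at -1.38 (SE 0.13, adjusted P = 2.72e-05). Of all genes, 31.6% were called higher and 31.1% lower. *Ddit3* stood at 0.32 (SE 0.13, adjusted P = 0.0536), and passed without Ctrl sPre-B replicate 1 or 2 (adjusted P = 0.0254 and 0.0147) and without both Ctrl replicate 2 libraries (adjusted P = 0.0121), although no Ctrl library enters its difference. It also passed with immunoglobulin genes left out (adjusted P = 0.0446), from the 4 compared libraries alone (adjusted P = 0.014) and in the fit with a replicate block. *Atf4* stood at -0.23 (95% interval -0.49 to 0.03, adjusted P = 0.105). *Atf3*, *Cebpb*, *Cebpg*, *Trib3* and *Chac1* stood at -0.10, 0.34, 0.05, -0.04 and -0.11.

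**Figure D3:**
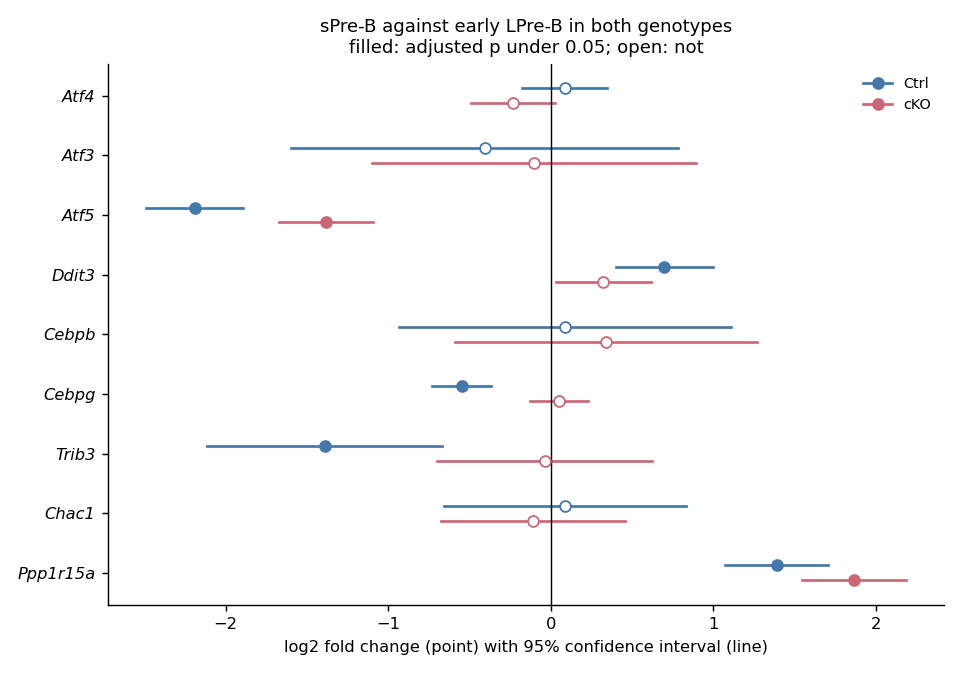
Log2FC of each regulator, sPre-B minus early LPre-B, on the horizontal axis, in Ctrl and in cKO cells, with 95% confidence intervals as lines and filled points where the adjusted P was under 0.05. *Atf5* is lower (-2.19 and -1.38) and *Ppp1r15a* higher (1.39 and 1.87) in sPre-B cells of both genotypes.

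Levels were compared between genes only per exon length, as CPM per kilobase of exon (RPKM). *Atf4* was the highest of the 9 in all 4 groups, at 53.5 ± 4.96 RPKM (SD, n = 2) in Ctrl and 183 ± 17.3 in cKO early LPre-B cells, and at 56.8 ± 3.05 in Ctrl and 156 ± 7.49 in cKO sPre-B cells. *Atf3* was the lowest in all 4, with group means of 0.0582 to 0.246 RPKM. *Ddit3* took place 4 in Ctrl early LPre-B cells (5.88 RPKM), behind *Cebpg* (20.6 RPKM) and *Atf5* (13.0 RPKM), and place 2 in cKO (31.7 RPKM). Among sPre-B cells it took place 3 in Ctrl (9.56 RPKM) and 2 in cKO (39.7 RPKM). *Chac1* was at place 8 in Ctrl cells of both stages, at 0.151 and 0.155 RPKM, and reached 2.88 and 2.67 RPKM in cKO. Neighbours whose libraries overlapped were *Cebpg* and *Atf5*, *Trib3* and *Chac1*, and *Chac1* and *Ppp1r15a* in cKO early LPre-B cells, and *Trib3* and *Cebpb* in Ctrl sPre-B cells.

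**Figure D4:**
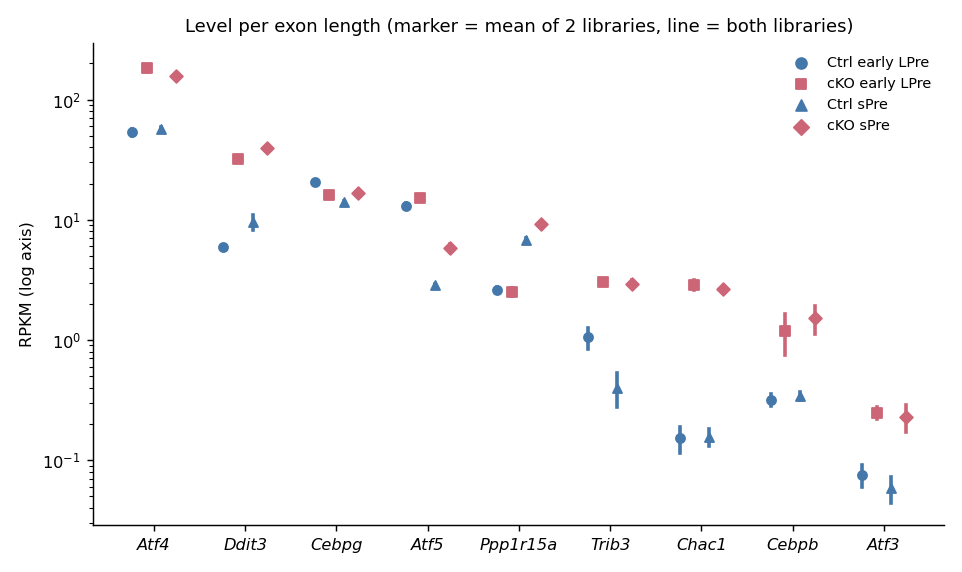
Level of each regulator per exon length (RPKM, vertical log axis) in the 4 groups, with a marker for the mean of 2 libraries and a line between the 2. *Atf4* is at the top in every group (means of 53.5 to 183 RPKM) and *Atf3* at the bottom.

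Over the 8 libraries, the log2 CPM of *Atf4* ran parallel to that of *Chac1* (Pearson r of 0.98) and *Ddit3* (0.96), and not to that of *Cebpg* (-0.22) or *Ppp1r15a* (0.06). These r are a description over 8 libraries that share the 4 groups. Among 12859 genes with a mean of at least 1 CPM, the profiles most like *Atf4* were those of *Psmf1* (0.996), *Zdhhc4* (0.996), *Qtrt1* (0.995). For *Ddit3* they were *Atp13a1* (0.998), *Sbds* (0.997), *Fbxw9* (0.994), and for *Trib3* *Timmdc1* (0.990), *Hscb* (0.987), *Bbs2* (0.986).

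Of a list of ATF4 target genes, 49 were matched and 46 tested. In cKO early LPre-B cells 28 were called higher and 4 lower (median Log2FC 0.66), and in cKO sPre-B cells 30 higher and 5 lower (median 0.85). The shares of all genes were 14.5% and 16.9% in the first comparison and 19.8% and 14.9% in the second. Higher calls were thus more frequent in the list than among all genes in both. Lower calls were below the share of all genes in early LPre-B cells and near it in sPre-B cells, and this was not tested. The largest change was that of *Asns*, the enzyme that makes asparagine, which had 1.57 and 1.40 CPM in Ctrl and 31.7 and 36.9 CPM in cKO early LPre-B cells, and 0.780 and 0.624 CPM in Ctrl and 22.1 and 24.0 CPM in cKO sPre-B cells. These are a 23.0-fold difference, with a Log2FC of 4.53 (SE 0.17, adjusted P = 3.42e-06), and a 32.6-fold difference, with a Log2FC of 5.03 (SE 0.18, adjusted P = 7.08e-06). *Slc6a9*, a glycine transporter, followed with 4.31 and 4.11, and *Slc7a3*, a transporter of cationic amino acids, with 3.94 and 3.71. Both were low in Ctrl early LPre-B cells, with 25 and 30 counts for *Slc6a9* and 12 and 19 for *Slc7a3*.

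Grouped by symbol after their values were known, 10 of the 11 aminoacyl-tRNA synthetase genes of the list, which charge tRNAs with amino acids, were called higher in cKO early LPre-B cells and 11 in cKO sPre-B cells. Their Log2FC ran from 0.29 to 1.67 and from 0.50 to 1.87. Of 9 solute carriers, 6 and 7 were called higher and none lower. Of the other 26 targets, 12 were called higher in each stage, and 4 and 5 lower. All genes were called higher and lower at 14.5% and 16.9% in early LPre-B and 19.8% and 14.9% in sPre-B cells. *Ndrg1*, a stress gene that hypoxia also induces, was lower at -1.12 and -1.51, and *Sqstm1*, an autophagy receptor, at -0.68 and -0.88. *Gadd45a*, a growth arrest gene, was lower at -0.63 in early LPre-B cells and *Ddit4*, an inhibitor of mTORC1 signalling, at -0.89 in sPre-B cells. The difference between stages was called for 5 targets, named here after their values were seen: *Mthfd2* (1.27), *Bbc3* (0.98), *Slc7a1* (0.91), *Aars1* (0.76) and *Eif4ebp1* (-1.25). These 4 higher and 1 lower of 46 stand against 2.64% and 1.6% of all genes. DESeq2 called 6 and 4 of the targets, against 1045 and 725 of 15984 genes. Between the stages, 9 targets were higher and 24 lower in sPre-B than in early LPre-B cells of Ctrl mice, and 9 and 25 in those of cKO mice. Of all genes, 29.1% were called higher and 31.1% lower in Ctrl, and 31.6% and 31.1% in cKO.

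**Figure D5:**
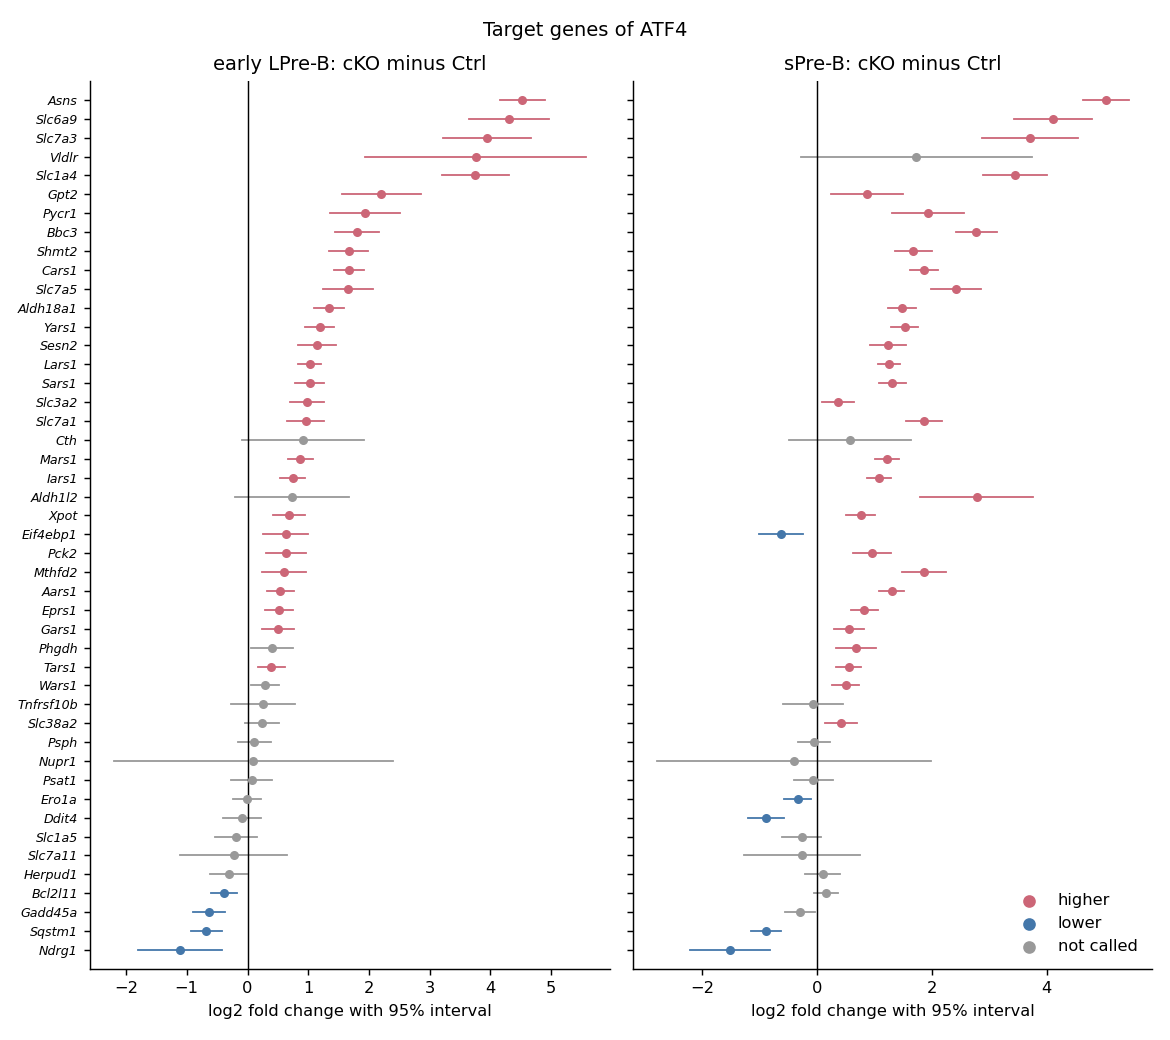
Log2FC of the 46 tested ATF4 target genes, cKO minus Ctrl, on the horizontal axes, in the early LPre-B (left) and the sPre-B stage (right), with 95% intervals as lines and colours for genes called higher, called lower and not called. *Asns* is the highest, at 4.53 and 5.03, and *Ndrg1* the lowest, at -1.12 and -1.51.

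Among 18 genes that act upstream (eIF2 kinases, phosphatase partners, eIF2, eIF2B and their cofactors), 5 were called higher and 3 lower in cKO early LPre-B cells, and 7 higher and 1 lower in cKO sPre-B cells, with medians of 0.24 and 0.25. Over all genes, the shares called higher and lower were 14.5% and 16.9% in early LPre-B and 19.8% and 14.9% in sPre-B cells, so the share of these genes called lower in early LPre-B cells was near that of all genes. *Eif2ak3*, which encodes the kinase PERK that senses unfolded proteins in the endoplasmic reticulum, was lower, at -1.11 (SE 0.10, adjusted P = 0.000134) and -0.92 (SE 0.10, adjusted P = 0.00026). *Ppp1r15b*, the constitutive partner of the eIF2 phosphatase, and *Eif2ak1*, the kinase of heme loss, were lower in early LPre-B cells, at -0.39 and -0.29. *Impact*, an inhibitor of the amino acid sensing kinase GCN2, was higher by 0.59 and 0.94. *Eif2ak2*, the kinase of double-stranded RNA, and *Eif2b3*, a subunit of eIF2B, were higher by 0.93 and 0.81 in early LPre-B cells. *Dele1*, which relays mitochondrial stress, and *Eif2s2*, a subunit of eIF2, were higher by 0.60 and 0.54 in sPre-B cells.

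Genes for protein folding and degradation in the endoplasmic reticulum that XBP1 and ATF6 control numbered 15. In cKO early LPre-B cells 5 were called higher and 1 lower (median 0.22), against 14.5% and 16.9% of all genes. In cKO sPre-B cells 0 were called higher and 1 lower (median 0.07), against 19.8% and 14.9% of all genes. At an unadjusted P under 0.05 the sPre-B counts were 2 and 3, and by DESeq2 2 and 4. *Sdf2l1*, *Hyou1* and *Calr* were higher by 0.65, 0.57 and 0.46 in early LPre-B cells, and *Edem1*, which marks misfolded proteins for degradation, was lower at -0.32 and -0.83. Of 9 mitochondrial chaperones and proteases, 4 were called higher and 1 lower in early LPre-B, and 4 higher and 0 lower in sPre-B cells, against the same shares of all genes. *Clpp*, *Hspa9* and *Lonp1* were higher in both, by 1.17, 0.50 and 0.41 and by 1.18, 0.63 and 0.53, and *Yme1l1* was lower at -0.39 in early LPre-B cells.

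Of 33 other factors of the bZIP family, to which ATF and C/EBP proteins belong, 4 were called higher and 9 lower in cKO early LPre-B cells, and 4 higher and 8 lower in cKO sPre-B cells. The share called higher was near or below that of all genes (14.5% and 19.8%), where 16.9% and 14.9% were called lower. *Jdp2*, a repressor that binds ATF sites, was higher by 2.27 and 2.51 and *Mafg* by 1.20 and 0.71. *Hlf* was higher by 1.77 in early LPre-B cells and *Batf*, a lymphocyte factor, by 1.54 in sPre-B cells. *Maf*, *Jun* and *Jund* were lower in early LPre-B cells, at -2.89, -1.23 and -0.96, and *Fos*, *Crem* and *Cebpd* in sPre-B cells, at -2.84, -0.92 and -0.87.

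*Atf3* is also an immediate early gene that cell handling can induce, so 14 genes of that kind are set beside it. In cKO early LPre-B cells 2 were called higher and 4 lower, and in cKO sPre-B cells 3 higher and 3 lower. The higher calls were near the share of all genes in both stages (14.5% and 19.8%), where 16.9% and 14.9% were called lower. *Egr1* was lower at -1.89 and -3.23, *Btg2* at -1.22 in early LPre-B cells and *Zfp36* at -0.41 in sPre-B cells. *Nr4a1* was higher by 1.53 and 1.24, *Hspa1b* by 0.64 in early LPre-B cells, and *Socs3* and *Hspa1a* by 1.57 and 0.57 in sPre-B cells. Their summed level was 416 to 434 CPM in Ctrl and 251 to 274 CPM in cKO early LPre-B cells, and 1514 to 1577 CPM in Ctrl and 1158 to 1309 CPM in cKO sPre-B cells. *Btg2* alone made up 954 and 963 CPM of the sum in Ctrl and 756 and 782 CPM in cKO sPre-B cells. The part of these genes in the *Atf3* result was not tested.

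The B lineage factor *Pax5* was present in all groups, at 269 to 583 CPM. For the marker lists, the counts stand against 14.5% and 16.9% of all genes called higher and lower at the early LPre-B stage, and against 19.8% and 14.9% at the sPre-B stage. Of 10 B lineage markers, 0 were called higher and 5 lower in cKO early LPre-B cells (*Rag1* -2.74, *Cd79a* -1.77, *Rag2* -1.04), and 2 higher and 3 lower in cKO sPre-B cells (*Vpreb1* 0.88, *Igll1* 0.66, *Cd79a* -2.08, *Rag1* -1.06, *Ebf1* -0.80). Of 5 markers that separate the stages, *Kit*, *Il2ra* and *Spn* were lower in cKO early LPre-B cells, at -2.51, -1.02 and -0.57, and 0 were higher and 0 lower in sPre-B cells even at an unadjusted P under 0.05 by edgeR, or by DESeq2. Erythroid markers summed to 9.33 to 27.0 CPM and T and NK cell markers to 1.12 to 4.14 CPM over the 8 libraries, with 1 and 1 called lower in early LPre-B and 1 and 0 in sPre-B cells. These were *Hbb-bs*, whose reads can be shared with other globin genes, at -1.61 and -1.51, and *Klrb1c* at -2.29. Plasma and dendritic cell markers summed to 86.6 to 95.3 CPM in Ctrl and 51.1 to 57.3 CPM in cKO early LPre-B cells, and to 174 to 187 CPM in Ctrl and 394 to 414 CPM in cKO sPre-B cells, with 1 of 6 called higher and 1 lower in each stage, which is about the share of all genes. *Sdc1*, a plasma cell marker, was lower at -0.88 and -0.96, and *Flt3* was higher by 1.01 in early LPre-B cells. *Itgax*, a dendritic cell integrin, was higher by 1.99 in sPre-B cells and carried the higher sum there, with 63.2 and 114 CPM in Ctrl and 376 and 332 CPM in cKO. The part of these shifts in the results was not tested.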

How the data were processed

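Per the labels and the study's methods, the authors sequenced ribosome-depleted RNA from the 8 libraries, trimmed the reads (Trim Galore), aligned them (HISAT2, mm10) and counted them per Entrez gene without strand (featureCounts). The deposited values are raw counts. Of 27179 genes, 25275 were named from RefSeq.

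Counts were fitted in edgeR 4.0.16 (R 4.3.3), with TMM factors of 0.862 to 1.09, filterByExpr by group, 1 mean per group over all 8 libraries and the two-sided quasi-likelihood F test. P-values were adjusted by Benjamini-Hochberg over 17700 genes in each of 5 comparisons, and genes were called at an adjusted P under 0.05. CPM and RPKM were computed from the counts, with GENCODE exon lengths. One item is not reported here. All members were described, and from every other list up to 3 called genes in each direction, by size of change. The members and lists were chosen with earlier results of these data known. The code was tested on simulated data. Alternatives included DESeq2 1.42.0, other factors and filters, and leaving out libraries, of which 1 was added after seeing the data (both Ctrl replicate 2 libraries). The study describes its data points as independent biological replicates, and the labels tie no library to an animal, so whether libraries of the 2 stages share animals is not known.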

Additional observations from a re-analysis of the deposited data

Results flagged for a closer look

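A difference of the cKO effect between the stages was called for 2 of the 9 regulators, by a test of the difference itself. Of all genes, 2.64% were called higher and 1.6% lower. Neither call was kept under every alternative run, and both were lost without the 2 Ctrl replicate 2 libraries. For *Atf5* the Log2FC was larger in sPre-B than in early LPre-B cells by 0.81 (edgeR, adjusted P = 0.0428), with both cKO libraries above both Ctrl libraries in each stage. For *Cebpg* the difference was 0.60 (edgeR, adjusted P = 0.0274), with both cKO libraries below the Ctrl libraries in early LPre-B cells and above them in sPre-B cells. Leaving out single libraries gave an adjusted P of 0.058 to 0.14 for *Atf5* and of 0.0447 to 0.105 for *Cebpg*.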

How the results depend on the processing

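Of 45 values (9 regulators in 5 comparisons), 25 were called, and none of these changed direction under any alternative run. Of the 25, 15 were called under all. In sPre-B cells *Cebpg* lost its call by the likelihood-ratio test, RLE factors, no expression filter, DESeq2 and the 4 compared libraries alone, and *Ppp1r15a* by the first 2 of these. The number of members with a larger effect in sPre-B cells was 1 with RLE factors and 0 without both Ctrl replicate 2 libraries, and *Trib3* joined them by DESeq2 (adjusted P = 0.028) and with no filter (adjusted P = 0.033), alternatives that also called over 2 times as many genes higher in this comparison. The number higher in sPre-B than early LPre-B cells of cKO mice was 2 with immunoglobulin genes left out, with the 4 compared libraries alone and without both Ctrl replicate 2 libraries, and the number lower in cKO early LPre-B cells was 0 in the latter 2. *Ppp1r15a* in early LPre-B cells was 0.022 from the 4 compared libraries, and *Cebpb* between Ctrl stages -0.10 without both Ctrl replicate 2 libraries. The causes were not tested.

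With single libraries left out, the members lower in cKO early LPre-B cells numbered 0 to 1, those higher between cKO stages 1 to 2 and those with a larger effect in sPre-B cells 0 to 2. Values that were not called and changed sign ranged over -0.17 to 0.077 for *Ppp1r15a* in early LPre-B cells. Between Ctrl stages the ranges were -0.79 to 0.0074 for *Atf3*, -0.029 to 0.33 for *Cebpb* and -0.21 to 0.51 for *Chac1*. Between cKO stages they were -0.53 to 0.21 for *Atf3*, -0.12 to 1.01 for *Cebpb*, -0.0015 to 0.10 for *Cebpg*, -0.14 to 0.062 for *Trib3* and -0.24 to 0.037 for *Chac1*. For the difference of the effects they were -0.12 to 0.69 for *Atf3*, -0.21 to 0.92 for *Cebpb* and -0.64 to 0.083 for *Chac1*.

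The replicate number was also fitted as a replicate block, with the same term for both genotypes. This does not model animals that the stages of a genotype may share. With the block, the number higher in sPre-B cells of cKO mice was 2, since *Ddit3* was called (adjusted P = 0.0414). No other call of a member changed. Deviations of same-numbered libraries correlated at 0.395 between the stages of Ctrl and at 0.254 between those of cKO. Between groups of different genotype they correlated at 0.0514 to 0.198. The labels say nothing of what a number shares.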
